A study of Mus musculus with 12 samples.

Results

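Transcript levels of neutrophil granule genes, the calcium-binding S100a8 and S100a9 and the receptor gene Csf3r were followed in marrow cells of the mouse enriched for haematopoietic stem and progenitor cells, from which blood is made. The 9 genes were chosen by symbol (S100a8, S100a9, Lcn2, Ltf, Camp, Ngp, Mmp8, Mmp9 and Csf3r) from the 38924 entries of the deposited table. Of these, 8 carried a usable label, because the length of the gene model behind an entry can be worked out from its values and set against the annotated exon length. The entry labelled Ngp, the neutrophilic granule protein gene, had a length of 9744 bases where the annotated gene has 1222, and 0 of its 20 alphabetical neighbours had their own length. It was left out. The entries of S100a9, Mmp9 and Csf3r had exactly the annotated length. The other 5 had lengths of 392 to 2742 bases that differed from the annotation (694 bases annotated for S100a8 and 2425 for Mmp8), in stretches where 8 to 14 of 20 neighbours matched, so their labels rest on their neighbours.

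The brain-recovered group held 6 libraries (replicates 4, 5, 6, 10, 11 and 12) of cells injected intravenously into mice 24 h after their brain had undergone ischaemia and reperfusion, a model of stroke, and taken out of the recipient's brain 24 h later. The naive group held 6 libraries (replicates 1, 2, 3, 7, 8 and 9) of cells that were not injected. All cells came from the marrow of male C57BL/6 donors aged 4 to 5 weeks and had been depleted of cells carrying CD45R, CD11b, CD3e, Ly-6G or TER119, so that marrow cells with the granulocyte surface proteins CD11b and Ly-6G were removed from both groups at the start. How injected cells were told apart from host cells in the brain, and whether a library pooled several animals, is not given in the sources used here. Nothing states that replicates came from separate animals, so the spread between these libraries may be technical. In the comparison of all 12 libraries the p-values rest on that spread pooled over similarly abundant entries, not on the spread of each gene alone.

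Neutrophils store antimicrobial and matrix-degrading proteins in granules that are filled in sequence as the cell matures in the marrow. Primary granules with myeloperoxidase and elastase are filled at the promyelocyte stage, specific (secondary) granules with lactoferrin, lipocalin 2 and cathelicidin at the myelocyte and metamyelocyte stage, and gelatinase granules later still. S100A8 and S100A9 form calprotectin, an abundant cytosolic protein of neutrophils and monocytes that binds calcium and metal ions. In bone marrow these genes are therefore read as markers of how far granulocyte maturation has gone.

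The C/EBP transcription factors direct the genes of the later granules, and the promoters of the 4 genes below are shown because S100a8, S100a9 and Lcn2 carried the highest values or the largest difference, and Ltf is the classical specific granule gene. Each is the 250 bases before the RefSeq transcription start on GRCm38.p6, 5′ to 3′, with capitals marking matches to the C/EBP letters TTNNGNAA on either strand.
S100a8 promoter, chr3:90668821-90669070, plus strand: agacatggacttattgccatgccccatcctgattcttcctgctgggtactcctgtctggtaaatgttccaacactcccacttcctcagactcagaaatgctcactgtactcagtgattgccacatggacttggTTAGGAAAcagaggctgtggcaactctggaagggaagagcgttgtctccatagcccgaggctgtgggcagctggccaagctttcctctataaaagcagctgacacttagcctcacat
S100a9 promoter, chr3:90695722-90695971, minus strand: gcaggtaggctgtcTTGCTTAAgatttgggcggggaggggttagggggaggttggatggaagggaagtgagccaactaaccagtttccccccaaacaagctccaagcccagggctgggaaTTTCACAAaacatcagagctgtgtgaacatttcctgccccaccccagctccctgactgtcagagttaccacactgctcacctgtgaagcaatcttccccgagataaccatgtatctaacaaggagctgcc
Lcn2 promoter, chr2:32387740-32387989, minus strand: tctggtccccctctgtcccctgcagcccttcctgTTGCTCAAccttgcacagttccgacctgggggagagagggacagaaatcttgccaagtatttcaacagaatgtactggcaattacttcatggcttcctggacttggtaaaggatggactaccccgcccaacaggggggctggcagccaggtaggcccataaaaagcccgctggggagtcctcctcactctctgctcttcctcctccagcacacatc
Ltf promoter, chr9:111019042-111019291, plus strand: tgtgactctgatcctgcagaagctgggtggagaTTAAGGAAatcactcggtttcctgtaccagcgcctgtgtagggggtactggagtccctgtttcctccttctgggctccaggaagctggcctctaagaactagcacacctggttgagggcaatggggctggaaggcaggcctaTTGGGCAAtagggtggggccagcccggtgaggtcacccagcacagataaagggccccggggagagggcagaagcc
At least 1 such match lay in 5 of the 7 promoters found for the 8 genes, against 36.8% of the 32851 mouse promoters in the same table. The letters GAGGAA, the core bound by PU.1, were in 5 of 7 on either strand, against 23.3% of all promoters. The motifs were counted separately, no match to one overlapped a match to the other in these promoters, and a match is a run of letters only. The promoters of Camp and Csf3r held no match to the C/EBP letters in this window.

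The deposited values behave as RPKM, that is, as reads divided by the length of the entry and scaled for each library. The reads behind them numbered 1129531 to 13437450 in the brain-recovered libraries and 654551 to 2629606 in the naive libraries, and 4380 to 22727 and 5067 to 23184 entries lay above 0. The median value above 0 was 10.9 to 12.6 in brain-recovered libraries and 10.8 to 11.9 in naive libraries, so a value near 11 is a typical level in every library. Brain-recovered replicate 12 and naive replicates 1, 2 and 3 had fewer than 10000 entries above 0 and stand apart. Some housekeeping genes are listed at 0 too, so a 0 below means a listed 0 and not an absent transcript. Over all 17689 entries tested, 65 were higher in brain-recovered cells (0.367%) and 0 were lower (0%) with limma at an adjusted p below 0.05, and the median log2 difference was 0.64.

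In the comparison of all 12 libraries, none of the 7 genes that could be tested differed between brain-recovered and naive cells beyond the spread between libraries, and Camp was not tested. Lcn2 passed without brain-recovered replicate 12 (limma adjusted p = 0.0269), where 1.29% of all entries were called higher. It also passed in the libraries numbered 1 to 6, where 37.8% of all entries were called higher. There Lcn2 met the filter through its brain-recovered libraries alone. Of the 7 that reached 1 in 6 or more libraries and could be tested, 0 passed the threshold (limma, adjusted p 0.289 to 1.00), beside 0.367% of all entries. At an unadjusted p below 0.05 it was 1, Lcn2, beside 6.08% of all entries in that direction. The difference was positive in 6 of the 7 genes, beside 74.5% of all entries, and their median was 1.05. In all 7 the values of the groups overlapped. Among all entries the groups were fully apart in 0.147% with brain-recovered cells higher, and in 0.0226% with them lower. Brain-recovered replicate 12 was listed at 0 in all 8 genes.

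**Figure D1:**
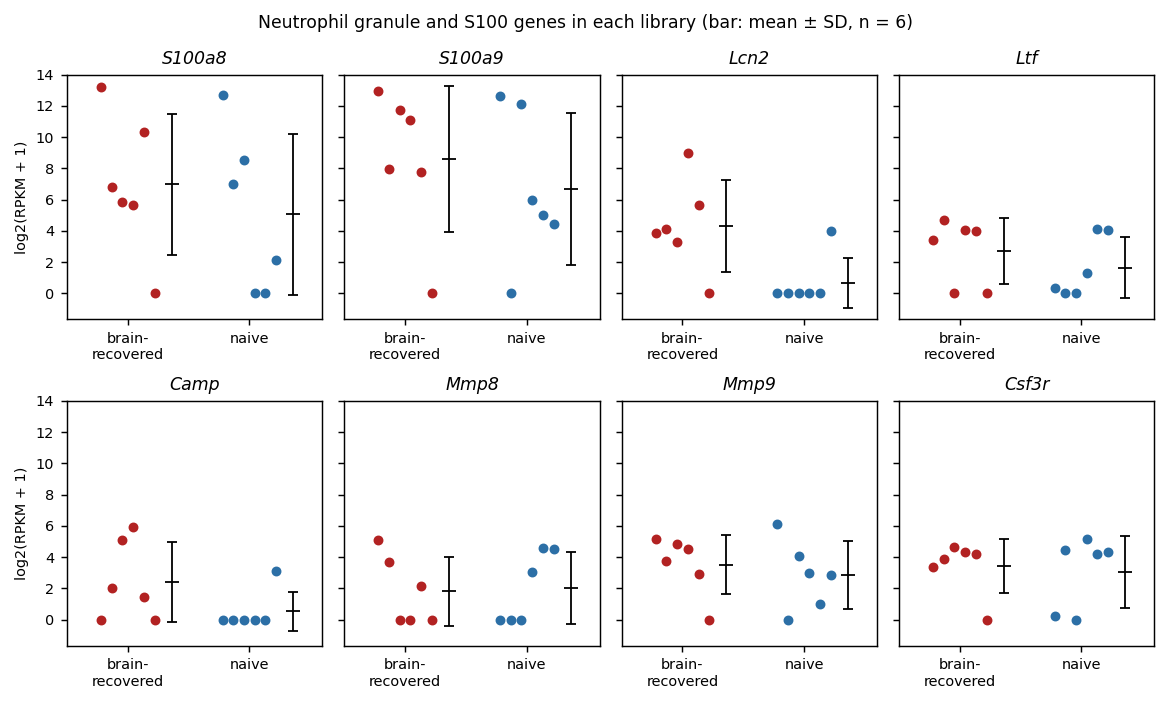
Each point is 1 library, with log2(RPKM + 1) on the vertical axis, brain-recovered libraries at left and naive libraries at right, in replicate order, and the bar gives the mean and SD (n = 6 per group). S100a8 and S100a9 spread from 0 to over 12 on this scale in both groups, while Lcn2 was at 0 in 5 of 6 naive libraries.

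S100a8 and S100a9 had by far the highest values of the 8 genes, in libraries of both groups. S100a8 (ENSMUSG00000056054, chromosome 3, 90668978 to 90670035, GRCm38) encodes the smaller subunit of calprotectin. Its values were 9558, 110.2, 56.2, 49.9, 1268 and 0 in brain-recovered replicates 4, 5, 6, 10, 11 and 12. In naive replicates 1, 2, 3, 7, 8 and 9 they were 6518, 125, 372, 0, 0 and 3.37. Replicate 4 of the brain-recovered group and replicate 1 of the naive group were the highest, and each group also held libraries listed at 0. The log2 difference was 1.92 ± 1.45 (SE, 6 libraries a group, limma adjusted p = 0.954), smaller than the spread within either group. With each of the 12 libraries left out in turn it ran from 0.67, without brain-recovered replicate 4, to 3.44, without naive replicate 1.

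S100a9 (ENSMUSG00000056071, chromosome 3, 90692632 to 90695721) encodes the other subunit and lies next to S100a8 in the S100 gene cluster. Brain-recovered replicates 4, 5, 6, 10, 11 and 12 had values of 8025, 250, 3407, 2201, 221 and 0. Naive replicates 1, 2, 3, 7, 8 and 9 had 6458, 0, 4466, 61.5, 30.8 and 20.2. In the 5 brain-recovered and 5 naive libraries above 0, S100a9 exceeded 96.9% to 99.9% and 86.6% to 99.9% of the entries above 0 in the same library. The log2 difference was 1.90 ± 1.49 (SE, 6 libraries a group, limma adjusted p = 0.961). It ranged over the libraries left out from 0.57 without naive replicate 2 to 3.62 without brain-recovered replicate 12.

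The values of S100a8 and S100a9 differed by up to 60.6 times within a library that held both. In brain-recovered replicate 4 and naive replicate 1 they were close, with S100a9 at 0.840 and 0.991 times S100a8, on 2728 and 3582 reads of S100a8. In brain-recovered replicates 6 and 10 S100a9 was 60.6 and 44.1 times S100a8, which rested on 11 and 17 reads there, and in replicate 11 it was 0.174 times S100a8. Naive replicate 3 also had more S100a9, at 4466 against 372 for S100a8, and naive replicate 2 had 65 reads of S100a8 and 0 of S100a9. Both genes were thus highest in brain-recovered replicate 4 and naive replicate 1, while the order of the other libraries was not the same for both. The libraries were made by amplifying cDNA from little RNA, and the part of this step in the ratios was not tested.

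**Figure D2:**
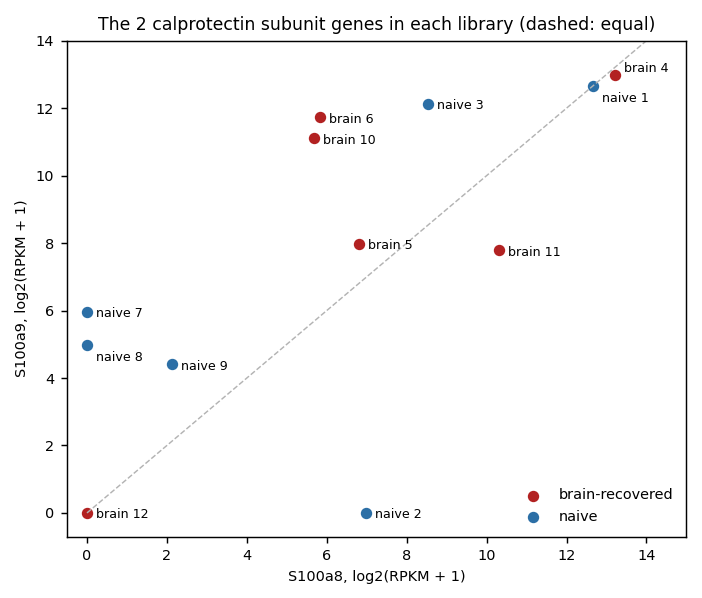
S100a9 is plotted against S100a8 as log2(RPKM + 1), with 1 point per library and a dashed line where both are equal. Brain-recovered replicate 4 and naive replicate 1 lie at the upper end of the line, brain-recovered replicates 6 and 10 and naive replicate 3 above it, and brain-recovered replicate 12 at 0 for both.

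The S100 pair depended on which libraries were set against each other. With the 4 sparse libraries (under 10000 entries above 0) left out, of which naive replicate 1 and naive replicate 3 held the highest naive S100a9, the log2 differences were 7.66 for S100a8 and 5.19 for S100a9 (limma adjusted p = 0.362 and 0.761). In the libraries numbered 7 to 12 they were 4.62 and 1.18, where the median over all entries was -1.09. In those numbered 1 to 6 they were -0.78 and 2.63, where that median was 2.42, close to the value of S100a9. None of these passed the threshold.

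Lcn2 (ENSMUSG00000026822, chromosome 2, 32384633 to 32388252) encodes lipocalin 2, a specific granule protein that withholds iron from bacteria by binding their siderophores, and had the largest difference of the 8 genes. Its values were 13.7, 16.03, 8.70, 512, 48.2 and 0 in brain-recovered replicates 4, 5, 6, 10, 11 and 12, against 0 in naive replicates 1, 2, 3, 7 and 8 and 14.6 in naive replicate 9. Replicate 10 stood at 1025 reads and above 95.1% of the entries above 0 in its library, while replicates 4, 5 and 6 lay above 59.8%, 74.3% and 38.2% of such entries. The log2 difference was 3.65 ± 1.23 (SE, 6 libraries a group, limma adjusted p = 0.289). It entered the test with 5 brain-recovered libraries and 1 naive library at or above 1, the fewest that the filter allows, so that leaving out any one of these 6 left it untested. Without brain-recovered replicate 12 the difference was 4.51 and passed (limma adjusted p = 0.0269), where 1.29% of all entries were called higher. In the libraries numbered 1 to 6 it was 3.75 and also passed (limma adjusted p = 0.00261). There the filter asked for 3 of 6 libraries, which Lcn2 met through its 3 brain-recovered libraries alone. In that comparison 37.8% of all entries were called higher. Lcn2 did not pass after quantile normalization (2.23), at the same total of reads (2.41), in libraries 7 to 12 (3.55) or without the sparse libraries (3.85). The limma adjusted p ran from 0.820 to 0.999 in these. Naive replicates 1, 2 and 3, listed at 0, are sparse libraries with 5067 to 7164 entries above 0.

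Camp (ENSMUSG00000038357, chromosome 9, 109847379 to 109849617) encodes the cathelicidin precursor of a specific granule antimicrobial peptide. Brain-recovered replicates 4, 5, 6, 10, 11 and 12 gave 0, 2.99, 33.3, 59.3, 1.73 and 0, on 31 reads at most. In the naive group it was listed at 0 in 5 libraries and at 7.69, on 7 reads, in replicate 9. Only 5 libraries reached 1, so Camp was not tested with the filter. Without a filter its log2 difference was 1.89 ± 1.10 (limma SE, adjusted p = 0.990). In bulk RNA of this kind fewer cells of a type and less RNA per cell cannot be told apart.

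Ltf (ENSMUSG00000032496, chromosome 9, 111019271 to 111042767) encodes lactoferrin, the iron-binding protein that defines the specific granule. Its values were 9.52, 24.6, 0, 15.5, 15.1 and 0 in brain-recovered replicates 4, 5, 6, 10, 11 and 12 and 0.26, 0, 0, 1.46, 16.3 and 15.6 in naive replicates 1, 2, 3, 7, 8 and 9. No library exceeded 75 reads. The highest value, in brain-recovered replicate 5, lay above 90.6% of the entries above 0 in its library, and that of naive replicate 9 above 76.1%. The log2 difference was 1.05 ± 1.18 (SE, 6 libraries a group, limma adjusted p = 0.982).

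**Figure D3:**
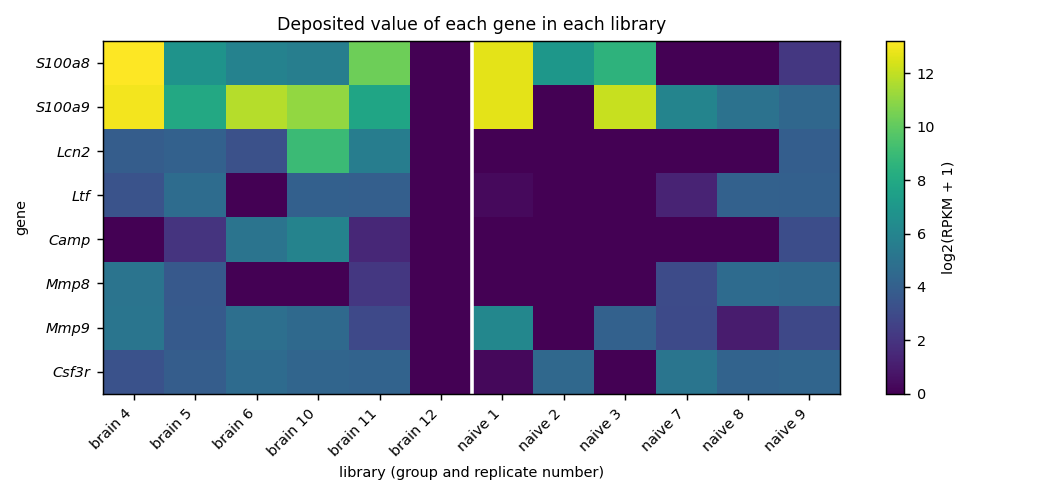
Colour gives log2(RPKM + 1) for each of the 8 genes (down the page) in each library (across), with the 6 brain-recovered libraries left of the white line and the 6 naive libraries right of it. S100a8 and S100a9 are bright in libraries of both groups, Lcn2 is bright in brain-recovered replicate 10 at 512, and the column of brain-recovered replicate 12 is at 0 throughout.

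The metalloproteinases of the later granules ranged in both groups from 0 to values above 91.5% or more of the entries above 0 in their library. Mmp8 (ENSMUSG00000005800, chromosome 9, 7558456 to 7568485), the neutrophil collagenase of specific granules, had 32.5, 11.7, 0, 0, 3.38 and 0 in brain-recovered replicates 4, 5, 6, 10, 11 and 12, against 0, 0, 0, 7.08, 23.3 and 22.1 in naive replicates 1, 2, 3, 7, 8 and 9. Each group thus had 3 libraries above 0, and the log2 difference was -0.21 ± 1.13 (SE, 6 libraries a group, limma adjusted p = 1.00). Mmp9 (ENSMUSG00000017737, chromosome 2, 164940780 to 164955850), the gelatinase B of gelatinase granules, was at 34.2, 12.2, 27.2, 21.8, 6.45 and 0 in the same brain-recovered order and at 67.5, 0, 16.2, 6.80, 1.01 and 6.34 in the same naive order. Its highest value was that of naive replicate 1, on 335 reads, and the log2 difference was 0.67 ± 1.29 (limma SE, limma adjusted p = 0.992). Leaving out a library gave 0.10 (naive replicate 2) to 1.38 (brain-recovered replicate 12).

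Csf3r (ENSMUSG00000028859, chromosome 4, 126024550 to 126044440) encodes the receptor of granulocyte colony-stimulating factor, which drives neutrophil production. Its values were 9.13, 13.96, 23.9, 19.1, 17.5 and 0 in brain-recovered replicates 4, 5, 6, 10, 11 and 12, against 0.198, 21.1, 0, 34.4, 17.3 and 18.8 in naive replicates 1, 2, 3, 7, 8 and 9. Apart from the libraries at or near 0 the values of the groups lay in the same range. The log2 difference was 0.34 ± 1.29 (SE, 6 libraries a group, limma adjusted p = 1.00). The sign turned with scaling, to -0.83 after quantile normalization and -1.23 with the libraries at the same total of reads. Csf3, the gene of its ligand, lay between 0 and 17.1 in brain-recovered libraries and between 0 and 12.3 in naive libraries and was not tested.

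**Figure D4:**
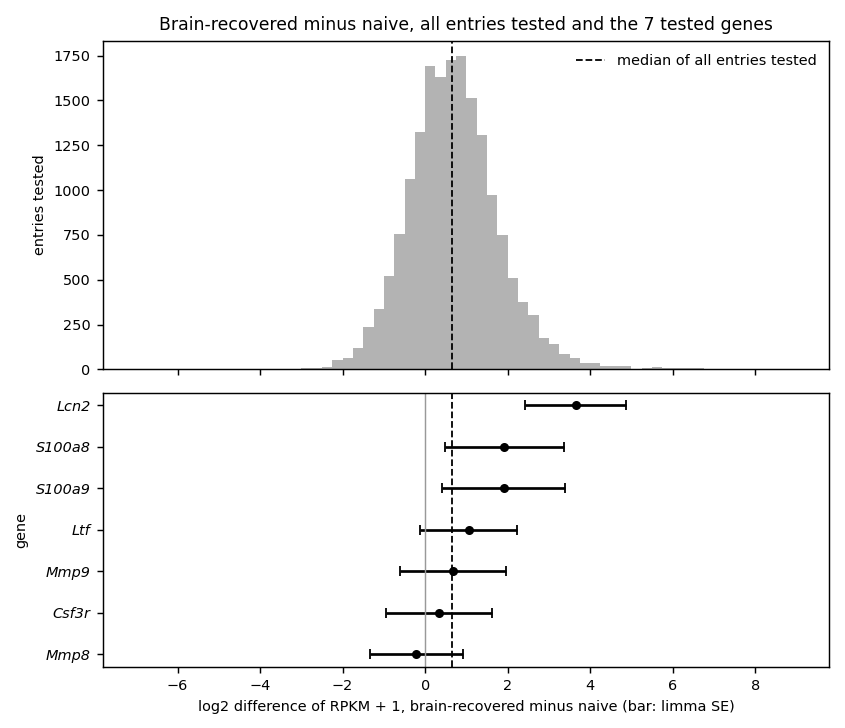
The upper panel counts the 17689 entries tested by their log2 difference, brain-recovered minus naive, and the lower panel gives the 7 tested genes with their limma SE on the same axis. Lcn2 lies farthest right at 3.65, and the bars of the other 6 genes reach the dashed median of all entries at 0.64.

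Of 6 lists of related genes, only that of primary granule proteins held genes past the threshold. Of 12 tested genes of other specific and gelatinase granule proteins, 0 passed and 11 had a positive difference (median 1.39, beside 0.64 over all entries). Pglyrp1, a peptidoglycan-recognition protein of the granules, was at 46963 in brain-recovered replicate 10 and between 1.16 and 46.4 in the other 5 brain-recovered libraries, against 0 to 22.3 in naive libraries (log2 difference 3.33 ± 1.29, limma SE, adjusted p = 0.521). Itgb2, the integrin chain shared by the leukocyte integrins, and Cybb, the catalytic subunit of the phagocyte oxidase, had differences of 2.55 ± 1.32 and 2.53 ± 1.25 (limma adjusted p = 0.815 and 0.767). Itgam, which encodes the depletion antigen CD11b and was picked out after its values were seen, was at 10707 in the same replicate 10 and at 0.124 to 17.2 in the other brain-recovered libraries, against 0 to 24.7 in naive libraries. Ly6g, the gene of the depletion antigen Ly-6G, was at 0 in all naive and 4 brain-recovered libraries and reached 18.5 in brain-recovered replicate 11.

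Of 8 tested primary granule genes, 3 rose and 0 fell (median 3.11), beside 0.367% and 0% of all entries. They were Srgn (6.71 ± 1.37), the granule proteoglycan serglycin, Elane (5.98 ± 1.39), the neutrophil elastase, and Mpo (5.86 ± 1.40), the myeloperoxidase, with limma adjusted p of 0.00197, 0.00835 and 0.0125 (SE, n = 6 per group). These SEs and p-values rest on a spread pooled over similarly abundant entries, not on that of each gene. Elane itself ran from 0 to 65623 in brain-recovered libraries. Lcn2 was highest in brain-recovered replicate 10, where Elane stood at 65623 and Camp at 59.3. The label of Elane, like those of Lcn2 and Camp, rests on its neighbours, while the lengths of Srgn and Mpo matched. The calls of Srgn, Elane and Mpo depended on scaling and on the libraries. None of the 8 passed after quantile normalization, at the same total of reads, in libraries 7 to 12 or without the sparse libraries. Only Srgn passed on leaving out brain-recovered replicate 6 or 10 or naive replicate 7 or 8. The difference between the primary granule genes and the genes described here was not tested.

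Of 7 tested other S100 genes, 0 passed and 5 had a positive difference (median 3.33). The largest were S100a6 (4.59 ± 1.33), S100a4 (4.02 ± 1.30) and S100a16 (3.48 ± 1.19), small calcium-binding proteins that are not confined to myeloid cells, with limma adjusted p of 0.113, 0.227 and 0.300 (SE). S100a6 reached 2471 and 9764 in brain-recovered replicates 5 and 10 and lay between 0 and 30.6 in the other brain-recovered libraries, against 0 to 24.2 in naive libraries. Those were not the libraries where S100a8 was highest.

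The transcription factors of granulocyte maturation gave 0 of 8 past the threshold with a median of 1.45. Cebpb, the C/EBP family member of emergency granulopoiesis and macrophages, had 13.7, 108, 988, 1244, 215 and 0 in brain-recovered replicates 4, 5, 6, 10, 11 and 12, against 0 to 13.1 in naive libraries (log2 difference 4.83 ± 1.35, limma SE, adjusted p = 0.0819). Junb and Cebpa had differences of 3.15 ± 1.35 and 2.12 ± 1.21 (limma adjusted p = 0.634 and 0.888). Of 19 tested ligands, receptors and signalling genes 0 passed (median 1.15), with Cd14, a lipopolysaccharide co-receptor, at 2.78 ± 1.20, Socs3, a feedback inhibitor of cytokine signalling, at 2.07 ± 1.18 and Lrp1, an endocytic receptor that takes up lactoferrin, at 1.95 ± 1.27 (limma adjusted p 0.634 to 0.921). Of 11 tested metalloproteinase inhibitors and matrix protease genes 0 passed (median 0.57). Plaur, the urokinase receptor, led them at 3.72 ± 1.31, followed by Mmp14 at 2.05 ± 1.27 and Mmp2 at 1.96 ± 1.13 (limma adjusted p 0.347 to 0.912).

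**Figure D5:**
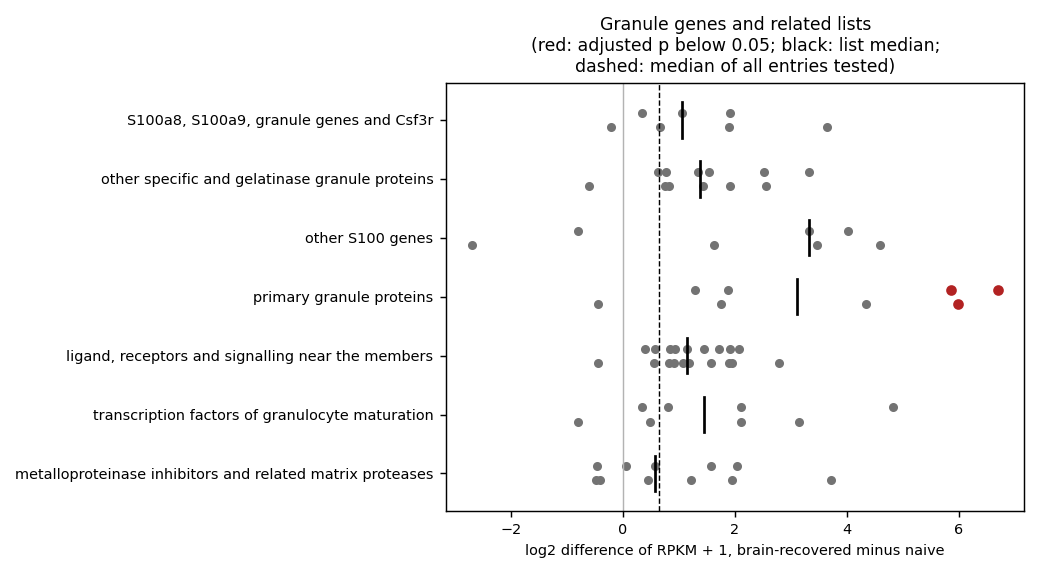
Each point is the log2 difference of 1 tested gene, brain-recovered minus naive, by list, with a black bar at the list's median, red for an adjusted p below 0.05 and a dashed line at the median of all entries, 0.64. The 3 red points are Srgn, Elane and Mpo among the primary granule proteins.

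Cell type markers of several lists, those of brain cells among them, were high in some of the brain-recovered libraries. The summed value of 8 oligodendrocyte markers was 6181, 7446 and 29154 in brain-recovered replicates 4, 5 and 6 and 53.0 to 328 in the other 3, against 16.6 to 115 in naive libraries. That of 8 astrocyte markers was 1081, 1303 and 3427 in brain-recovered replicates 4, 5 and 6 and 5.501 to 137 in the other 3, against 25.0 to 109 in naive libraries. Replicate 4, with the highest S100a8 and S100a9, was thus high in brain cell markers, while its macrophage and microglia sum was 92.2 and its monocyte sum 77.5. The 7 usable neuron markers summed to 382 and 392 in brain-recovered replicates 4 and 5 and to 8.05 to 202 in the others, against 0 to 122 in naive libraries. The 8 endothelial markers summed to 14542 and 6530 in brain-recovered replicates 6 and 10 and to 77.8 to 116 in the others, against 50.8 to 181 in naive libraries. The summed value of 12 macrophage and microglia markers was 21261 in brain-recovered replicate 10 and 3124 in replicate 6, and 2.08 to 252 in the other brain-recovered libraries, against 29.9 to 185 in naive libraries. That of 6 monocyte markers was 10953 in brain-recovered replicate 10 and 1.55 to 665 in the other brain-recovered libraries, against 10.9 to 131 in naive libraries. The 6 usable T and NK cell markers summed to 26293 in brain-recovered replicate 6, where Trac alone gave 26281. The other brain-recovered libraries had 0.355 to 73.6 and the naive libraries 0 to 117. The 8 erythroid markers summed to 2328 in replicate 6 and to 0 to 237 in the others, against 10.3 to 57.0 in naive libraries. The 8 B cell markers summed to 0.243 to 239 in brain-recovered and 13.1 to 145 in naive libraries. Of these lists 1 macrophage and microglia, 1 astrocyte, 1 neuron, 1 erythroid and 1 B cell gene were at 0 in every library. The 8 markers of mature neutrophils, Csf3r among them, summed to 0 to 117 in brain-recovered and 0 to 104 in naive libraries, and in brain-recovered replicate 4 and naive replicate 1, where S100a8 and S100a9 were highest, to 53.6 and 22.2. Their part in the values of Lcn2, S100a8 and S100a9 was not tested. The 11 usable progenitor markers summed to 48.1 to 35186 in brain-recovered libraries, where Ly6a alone gave 35095 in replicate 6, and to 61.6 to 140.0 in naive libraries, and Kit, which marks these cells, reached at most 13.9 in brain-recovered and 11.03 in naive libraries.

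The 5 entries of exact length whose values most resembled the mean log2(value + 1) of the 8 genes over the 12 libraries were Adam33, Cdsn, Carmn, AU022252 and Paqr3. Pearson's r was 0.860 to 0.892 and Spearman's rho 0.825 to 0.873, and r was 0.759 to 0.863 without brain-recovered replicate 12 and naive replicate 2, the libraries farthest from the median. They are the highest of 8245 candidates, so the size of r is set by that choice, and no p is given. Adam33 ran from 0 to 35.4 in brain-recovered libraries and from 0 to 13.9 in naive libraries.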

How the data were processed

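RNA of 12 libraries, 6 brain-recovered and 6 naive, was sequenced after cDNA amplification from lysate with a low-input kit and Nextera XT, per the labels' protocols. Trimming with Trimmomatic 0.32 and build GRCm38 are named per the submitters' processing notes. For aligner, counter and annotation, the entry is: not given in the sources used here. No unit stands in the header of the deposited table. Its values were treated as RPKM, since in 24387 of 24388 entries above 0 they are whole reads times 1 constant per library divided by 1 length (tolerance 0.004 of a read plus a part of 2e-06), and the authors' library factor is not the total of these reads.

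Lengths were set against GENCODE M21 exon lengths, and 37607 identifiers had a name. Of 21537 entries with at least 4 libraries above 0, 47.1% matched (a whole multiple up to 4 counted). A label was used if its own length matched, or if at least 2 of 10 neighbours on each side in alphabetical order matched and the length was 0.25 to 1.5 times the annotated one. This rule was made after the data were seen. Several genes of the related lists, Elane, Pglyrp1 and Itgam among them, were used on their neighbours alone. Promoters are from RefSeq.

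Differences were tested with limma 3.58.1 (R 4.3.3; moderated with a variance trend) on log2(value + 1). Entries had to reach 1 in 6 or more libraries, and p-values were adjusted over all of them after Benjamini and Hochberg (threshold 0.05). The prior weight was infinite in the comparison of all 12 libraries. An SE there reflects the spread of similarly abundant entries together, not that of the gene alone. In libraries 1 to 6 the prior weight was 2.56, so p-values there also rest on each gene's own spread. A log2(value + 1) difference understates the change of low genes. The script was tested on simulated data, where it recovered the size of the changes but called only part of those near the sizes reported here. Precision is set by the reads behind a value, and PCR reads are not independent molecules. Tables and figures were made with matplotlib 3.10.9, pandas 2.3.3, numpy 2.4.6 and scipy 1.17.1 under Python 3.11.15. Alternatives changed the pseudocount, filter, scaling, variance model and libraries.

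The genes and lists were chosen with earlier results of these data known. All 8 genes with a usable label are named. From each list, genes past the threshold and the 3 largest absolute differences are named, and the 5 exact-length entries with the highest r with the genes' mean.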

Additional observations from a re-analysis of the deposited data

Results flagged for a closer look

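In 16 groups of 6 libraries looked at (8 genes in 2 groups, on the log2 scale), 3 had a sample far from the others. For continuous values chance gives about 1 in 20 groups. That rate does not hold where several libraries are listed at 0, so the 3 flags cannot be set against it. Lcn2 in naive replicate 9, at 14.6, and Camp in naive replicate 9, at 7.69, each stood above 5 libraries listed at 0. Csf3r in brain-recovered replicate 12 was listed at 0, below 5 libraries at 9.13 to 23.9, and the other 7 genes were also at 0 there.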

How the results depend on the processing

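No paired analysis was possible because the groups share no replicate number. The count of all entries past the threshold was 65. It was 33 with a filter of at least 10, 0 after quantile normalization (before adjustment, limma p below 0.05 in 557 higher and 497 lower), 3 with the same total of recovered reads and 115 without a variance trend. It was 6011 in libraries 1 to 6, 0 in libraries 7 to 12 and 2 without the libraries under 10000 entries. Leaving out 1 library gave 36 to 226, with 39 without naive replicate 1, 40 without brain-recovered replicate 5 or naive replicate 9, 41 without brain-recovered replicate 6, 36 without naive replicate 8, 39 without brain-recovered replicate 11 and 226 without brain-recovered replicate 12. Of the genes described, 0 passed in all but 2 alternatives, and 1, Lcn2, passed without brain-recovered replicate 12 (range 0 to 1 over the 12 libraries left out) and in libraries 1 to 6. With the genes of exact length only it was 0 of 3. Lcn2 stayed positive, 2.23 to 5.82, in the 14 alternatives where it could be tested. With all libraries, or with 1 left out, it could be tested only where 6 reached the filter. The filter asked for 3 libraries within libraries 1 to 6 and within 7 to 12, and for 4 without the sparse libraries. Signs turned elsewhere, with no call. Over the 12 libraries left out S100a8 ran from 0.67 to 3.44, S100a9 from 0.57 to 3.62, Mmp9 from 0.10 to 1.38 and Ltf from 0.66 to 1.59. Lcn2 ran from 3.52 to 4.51 over only 6 libraries left out, all of them listed at 0 for Lcn2. The filter left no fit without a library where Lcn2 was above 0. This range thus cannot show whether the difference rests on 1 of those libraries. S100a8 was -0.34 at the same total of reads and -0.78 in libraries 1 to 6. S100a9 was -0.58 after quantile normalization. Ltf was -0.47 in libraries 7 to 12 and Mmp9 was -1.10 at the same total of reads. Mmp8 was 0.15 without brain-recovered replicate 6, 10 or 12. It ran from -0.62 to 0.15 over only 6 libraries left out, all of them listed at 0 for Mmp8. Csf3r was -0.83 after quantile normalization, -1.23 at the same total of reads, -1.70 in libraries 7 to 12, -0.47 without the libraries under 10000 entries, and -0.22 and -0.27 without naive replicate 1 or 3 (-0.27 to 1.02 over the libraries left out). The median difference of all entries, 0.64, was -0.06 with quantile normalization, -0.38 at the same total of reads, 2.42 in libraries 1 to 6 and -1.09 in libraries 7 to 12. The cause was not tested. Camp, on at most 31 reads, and S100a8 in brain-recovered replicates 6 and 10, on 11 and 17 reads, are limited by depth.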

Other observations

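The granulocyte maturation factor gene Cebpe, which is needed for specific granules, was at 1821 in brain-recovered replicate 10 and at 0 to 6.70 in the other 5 brain-recovered libraries, against 0 to 25.4 in naive libraries (log2 difference 0.34 ± 1.23, limma SE, adjusted p = 1.00). Replicate 10 also held the highest Lcn2 (512), Camp (59.3), Pglyrp1 (46963) and Itgam (10707) of all 12 libraries, while Ltf was at 15.5 and Csf3r at 19.1 there and Mmp8 was listed at 0. Lcn2 and Camp were thus highest in the library where Cebpe was highest, and Ltf and Mmp8 were not. This was seen in 1 library and was chosen after the values were seen. The labels of Cebpe, Lcn2, Camp, Pglyrp1, Itgam, Ltf and Mmp8 rest on their neighbours, since their own lengths did not match.

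The displacement of labels that removed Ngp touches the gene of the series title. The entry labelled Mt1, metallothionein 1, has an implied length of 681 bases where 1246 are annotated, and 0 of its 20 neighbours matched. The mitochondrial gene mt-Atp6 has an annotated length of 681 bases. No value is given under that label here.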
